A study of Mus musculus with 11 samples.

Results

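Chemokines are small secreted proteins that guide leukocytes, and in the liver they act at the sinusoid, where endothelial cells (ECs) line the vessels that carry portal blood from the gut. The genes described here are the 67 entries, out of 29307 listed genes, whose symbol is Ccl, Cxcl, Ccr, Cxcr or Ackr followed by a number, together with *Cx3cl1*, *Cx3cr1*, *Xcl1* and *Xcr1*. RNA was sequenced from liver ECs of 6 conventionally raised (CONV-R) and 5 germ-free (GF) male C57BL/6J mice aged 10 to 12 weeks, with 1 library per mouse. CONV-R mice carried a specific-pathogen-free flora, GF mice were kept in sterile isolators, and both came from the same colonies and had the same diet. No transgene or drug is named for either group. The cells were enriched with CD146 beads and then sorted as CD31+, CD105+ and CD146+, and 20 ng of RNA per mouse was amplified before library preparation. Low viability of the sorted cells is a stated limit of the study. The paper also reports fewer sorted ECs and far less RNA from GF than from CONV-R livers. This yield follows the groups, and its part in the results was not tested.

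Chemokines are grouped by the spacing of their first cysteines into CC, CXC, CX3C and XC ligands, and most bind G protein-coupled receptors that make leukocytes move. The atypical receptors, named *Ackr*, bind chemokines without that signal and clear, carry or buffer them. Liver sinusoidal ECs are known to present chemokines to passing lymphocytes and to take up much of what they meet in the blood.

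Total counts per library lay between 7242717 and 16164588. Of 16 marker genes of liver sinusoidal and general ECs, all 16 were tested and 0 were called, while 7 had an unadjusted edgeR p under 0.05 (23.0% of all tested genes did), each higher in GF libraries, with a median Log2FC of 0.24 over the list. Their summed level was 43614 to 51857 CPM in CONV-R and 40920 to 56956 CPM in GF libraries. CPM is the number of counts per 1000000 counts of a library, after TMM scaling of the library totals. Kupffer cell and macrophage markers moved with the groups: 8 of 13 tested were higher and 0 lower in GF libraries, and the sum of the 14 listed markers was 116 to 291 CPM in CONV-R and 273 to 1177 CPM in GF libraries, highest in GF replicate 6. B and plasma cell markers summed to 17.5 to 38.1 CPM in CONV-R and 8.58 to 17.5 CPM in GF libraries, with 0 of 6 tested markers passing the test. Summed levels overlapped between the groups for stellate cell and fibroblast markers (4.81 to 11.5 and 2.47 to 12.6 CPM), T and NK cell markers (7.44 to 13.7 and 5.28 to 9.89 CPM), hepatocyte markers (27.9 to 64.2 and 33.2 to 83.0 CPM), neutrophil markers (0.561 to 4.88 and 1.17 to 4.49 CPM) and erythroid markers (18.2 to 34.1 and 4.47 to 22.7 CPM). The monocyte and dendritic cell list overlapped as well, at 403 to 571 CPM in CONV-R and 294 to 422 CPM in GF libraries, but nearly all of that sum was *Zbtb46*, which edgeR called lower in GF libraries (474 ± 56.2 and 361 ± 45.4 CPM, adjusted p = 0.0443). Without CONV-R replicate 3 and GF replicate 6 together, *Zbtb46* was not called (edgeR adjusted p = 0.113). Cholangiocyte markers, led by *Spp1*, summed to 0.136 to 8.94 CPM in CONV-R and 13.6 to 36.7 CPM in GF libraries, and edgeR called *Spp1* higher. Platelet markers summed to 31.7 to 71.0 and 67.6 to 284 CPM, most of it from *Itgb3* (47.3 ± 14.3 and 122 ± 91.2 CPM, edgeR adjusted p = 0.0252), while the other 3 tested platelet genes, *Pf4*, *Ppbp* and *Itga2b*, were not called. In bulk RNA, fewer cells of a type and less RNA per cell cannot be told apart.

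**Figure D1:**
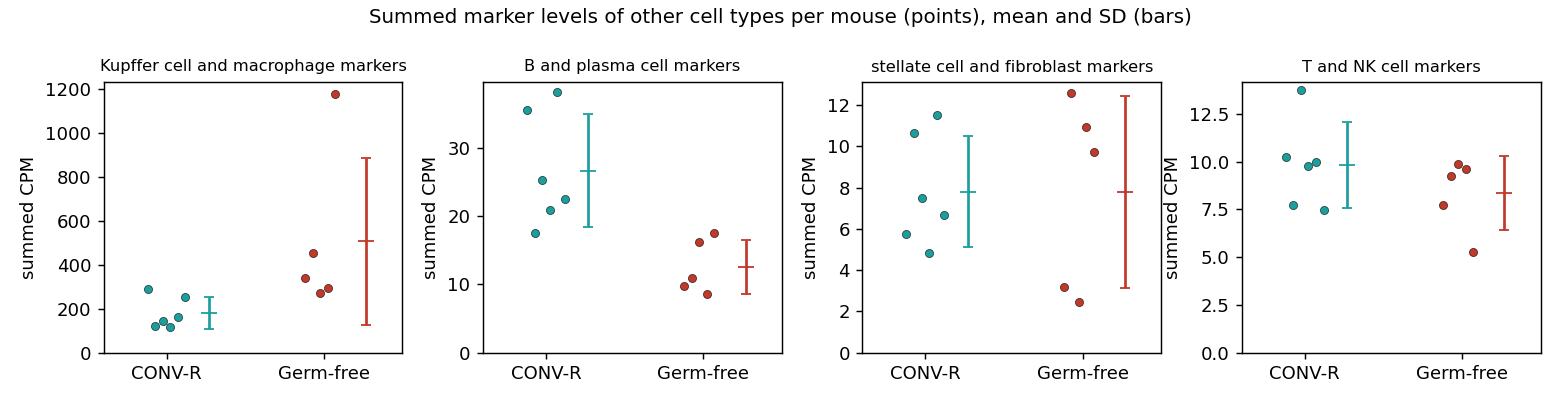
Summed CPM (y axis) of 4 marker lists of other cell types in the 6 CONV-R and 5 GF libraries (points), with the group mean and SD beside them. Macrophage markers reach 1177 CPM in GF replicate 6, B cell markers lie at or under 17.5 CPM in all GF libraries, and stellate cell and T cell markers overlap between the groups.

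Of the 67 entries, 53 had counts and 21 had enough to be tested. The tested genes were 7 CXC ligands, 5 CC ligands, 3 CC receptors, 2 CXC receptors and all 4 atypical receptors. The filter keeps a gene that is well counted in as many libraries as the smaller group holds, so a gene present in only 1 group can pass through that group. Levels were compared between genes as CPM per kilobase of exon. In CONV-R ECs the order was *Cxcl16* at 48.6 ± 7.34 (SD, n = 6), *Cxcl9* at 44.4 ± 22.2, *Cxcl10* at 36.2 ± 28.9, *Ackr2* at 29.0 ± 5.39 and *Ackr1* at 21.5 ± 7.11 CPM per kilobase. Neighbours among the first 4 differed by less than the larger of their SDs, and *Ackr2* and *Ackr1* by slightly more. *Ackr4* followed at 5.66 ± 0.84 CPM per kilobase, and the other 15 tested genes lay lower still in CONV-R ECs. In GF ECs *Cxcl9* came first at 83.5 ± 22.3 CPM per kilobase (SD, n = 5), ahead of *Cxcl16* at 48.6 ± 8.15 and *Ackr2* at 36.1 ± 7.40. The abundant members were thus ligands of lymphocyte receptors and scavenging receptors, while the highest tested signalling receptor, *Cxcr6*, had 2.29 CPM per kilobase in CONV-R and 1.88 in GF ECs.

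**Figure D2:**
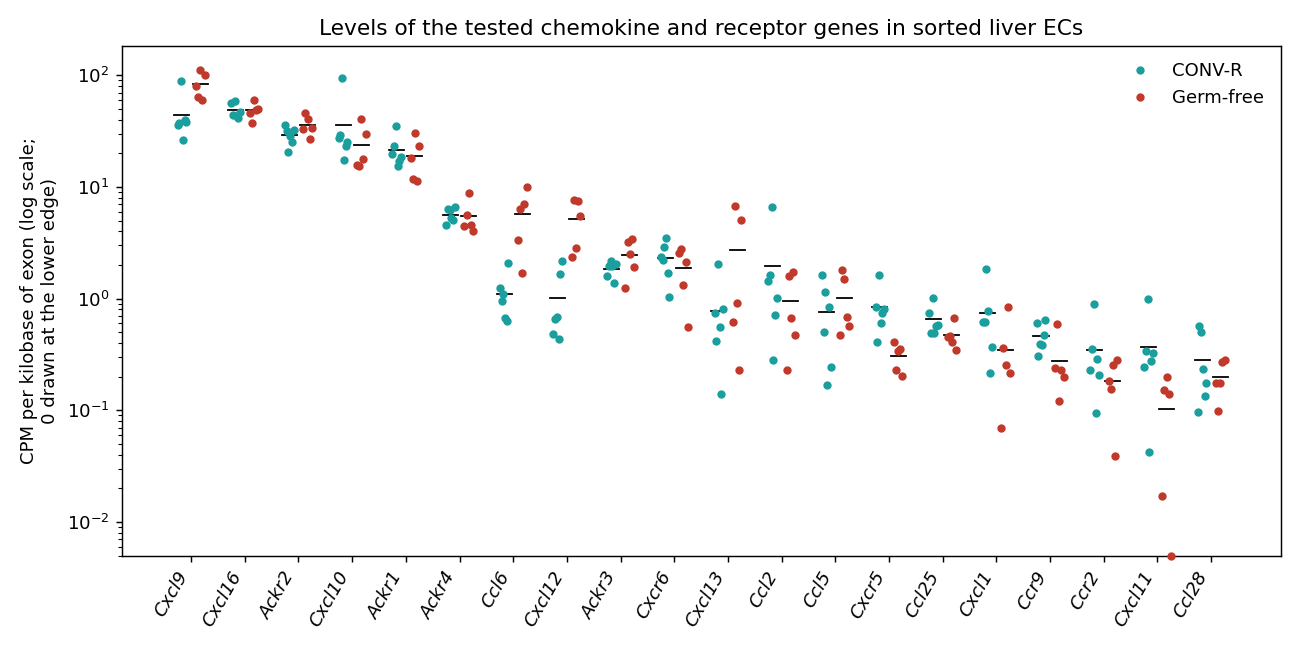
CPM per kilobase of exon (y axis, log scale) of 20 of the 21 tested chemokine and receptor genes, ordered by their mean over all libraries, with 1 point per mouse and black lines at the group means. *Cxcl9*, *Cxcl16*, *Ackr2*, *Cxcl10* and *Ackr1* stand above the rest in both groups, and the CONV-R point far above the others for *Cxcl10* is replicate 3.

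*Cxcl12*, *Ccl6* and *Cxcl9* were higher in GF than in CONV-R ECs, and edgeR called no tested member lower. In the quasi-likelihood test of edgeR, with p-values adjusted after Benjamini and Hochberg over 12905 genes, 3 of the 21 members (14.3%) had an adjusted p under 0.05, against 7.48% of all tested genes. All 3 were higher, against 4.80% of all tested genes, and 0 were lower, against 2.67%. An unadjusted p under 0.05 held for 6 of the 21 members (23.0% of all tested genes), 2 of them lower. Log2 fold changes (Log2FC, GF over CONV-R) were positive for 9 members, against 49.1% of all tested genes, and negative for 12, with a median of -0.17, against a median of -0.01 over all tested genes. The groups did not overlap for 2 of the 21, against 5.59% of all tested genes, and *Cxcl12* was the 1 that was higher, against 3.19%. DESeq2 gave an adjusted p to 35 members and called 8 of them, against 9.83% of all genes with an adjusted p. Of these, 5 were higher and 3 lower, against 3.85% of all genes lower. The 5 further genes it called were *Ccl9*, *Cx3cl1*, *Cxcr5*, *Ccr7* and *Ccl20*, of which only *Cxcr5* had enough counts for the edgeR test.

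**Figure D3:**
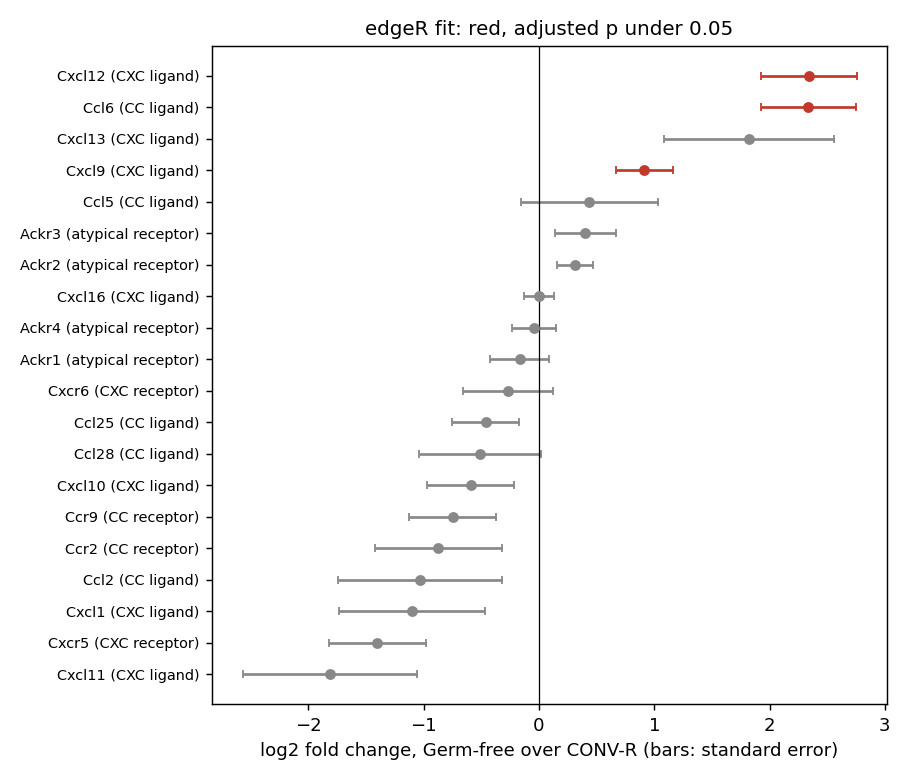
Log2FC of GF over CONV-R ECs (x axis) with its standard error for 20 of the 21 tested members, each labelled with its class. Red marks an edgeR adjusted p under 0.05, held by *Cxcl12*, *Ccl6* and *Cxcl9*, and the lowest estimate, for *Cxcl11*, is grey.

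*Cxcl9*, *Cxcl10* and *Cxcl11* lie side by side on chromosome 5 of GRCm38, from 92321347 to 92365485, and are known as interferon-induced genes for ligands of CXCR3, the receptor of activated T and NK cells, although *Cxcl11* is annotated as a polymorphic pseudogene in GENCODE M21. *Cxcl9* rose in GF ECs while *Cxcl10* and *Cxcl11* had lower means. To show how the abundant pair differs before the start of transcription, the 250 bases upstream of each RefSeq start are given 5′ to 3′ on the gene's strand (GRCm38.p6, minus strand), *Cxcl9* from chr5:92328080-92328329 and *Cxcl10* from chr5:92348890-92349139. Capitals mark matches to any of 4 motifs searched on both strands.
Cxcl9: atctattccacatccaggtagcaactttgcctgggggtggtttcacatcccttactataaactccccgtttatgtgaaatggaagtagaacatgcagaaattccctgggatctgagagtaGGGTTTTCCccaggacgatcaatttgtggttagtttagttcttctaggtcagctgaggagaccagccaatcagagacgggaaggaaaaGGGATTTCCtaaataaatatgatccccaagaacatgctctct
Cxcl10: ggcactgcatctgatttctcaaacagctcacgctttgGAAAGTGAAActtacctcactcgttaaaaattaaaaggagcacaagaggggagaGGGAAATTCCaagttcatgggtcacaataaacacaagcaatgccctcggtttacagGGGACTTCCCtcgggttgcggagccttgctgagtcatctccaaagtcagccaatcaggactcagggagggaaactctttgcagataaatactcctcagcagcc
The *Cxcl10* window holds 1 match to the interferon-stimulated response element (GAAA, any 2 bases, GAAA), beginning 213 bases before the start, and 2 to the NF-kappaB consensus, at 159 and 103 bases. The *Cxcl9* window holds neither, but has 2 matches to the shorter GGGNNTTCC, at 130 and 42 bases, a form that was added after these letters were seen and that overlaps the NF-kappaB consensus at 103 bases in *Cxcl10*. The gamma-activated sequence TTCNNNGAA is in neither window. Of 27025 upstream windows of this length in the RefSeq table, 3.04% hold the response element, 3.75% the NF-kappaB consensus, 4.88% GGGNNTTCC and 7.18% the gamma-activated sequence. Such a match is a description of letters and says nothing of binding.

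*Cxcl9* stood at 242, 194, 335, 182 and 306 CPM in GF replicates 1, 2, 4, 5 and 6. In CONV-R libraries it ran from 78.9 CPM through a median of 115 to 267 CPM. That highest CONV-R value belonged to replicate 3, and the other CONV-R libraries, at 78.9 to 120 CPM, lay below every GF library. The Log2FC was 0.91 (standard error 0.25, edgeR adjusted p = 0.0327). Without CONV-R replicate 3 the Log2FC was 1.23 and the edgeR adjusted p 0.000259. The call was lost when any of CONV-R replicates 1, 2, 4, 5 and 6 or GF replicates 1, 4 and 6 was left out, with adjusted p values between 0.0524 and 0.0898 from edgeR.

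*Cxcl10* had 35.6, 34.9, 91.5, 39.7 and 67.6 CPM in the GF libraries. CONV-R values ran from 39.6 through a median of 59.1 to 213 CPM, again with replicate 3 at the top and the others at 39.6 to 66.0 CPM. The groups overlapped, and the Log2FC was -0.59 (standard error 0.38, edgeR adjusted p = 0.370). Without CONV-R replicate 3 the Log2FC was -0.04. Since *Cxcl10* shares 133 exon bases with *Art3* on the other strand, and whether the counting used strand is not given in the sources used here, some of its reads may not be its own.

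*Cxcl11* was weakly counted. It had 0.0649, 0.577, 0.761, 0.528 and 0 CPM in the GF libraries and 0.160 to 3.80 CPM in CONV-R libraries, with a median of 1.14. Its Log2FC was -1.82 (standard error 0.75, edgeR unadjusted p = 0.0277, adjusted p = 0.158), and the highest value was once more CONV-R replicate 3. Without that library and GF replicate 6 the Log2FC was -1.0 (edgeR adjusted p = 0.431). A pseudogene on the other strand, *Gm2673*, covers 41.7% of its exon bases.

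Within each library, the ratio of *Cxcl9* to *Cxcl10* CPM was 1.25 to 2.32 in CONV-R mice, lowest in replicate 3, and 3.66 to 6.80 in GF mice. The ratios of the groups did not overlap. This ratio was formed after the values were seen and has no test. *Cxcr3*, the receptor, had 16 counts in all CONV-R and 21 in all GF libraries together, too few to be tested.

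**Figure D4:**
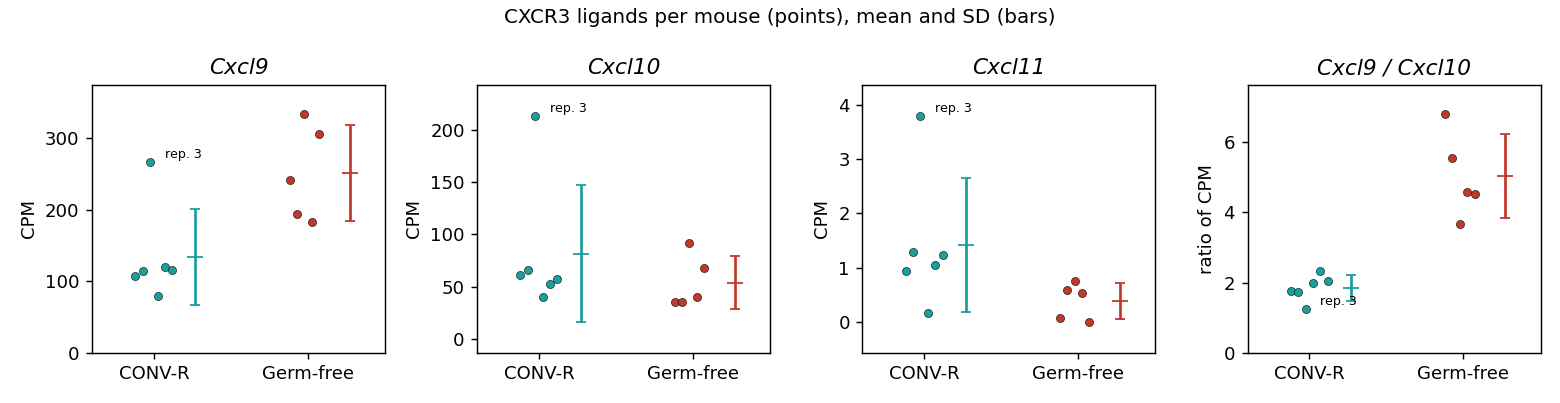
CPM (y axis) of the CXCR3 ligand genes *Cxcl9*, *Cxcl10* and *Cxcl11* and the ratio of *Cxcl9* to *Cxcl10* in each mouse (points), with group mean and SD. CONV-R replicate 3 is the highest CONV-R library for all 3 genes and the lowest for the ratio, and every GF ratio, from 3.66, exceeds every CONV-R ratio.

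*Cxcl12* encodes the ligand of CXCR4 and of the atypical receptor ACKR3, a chemokine that retains haematopoietic cells and guides growing vessels. On chromosome 6 of GRCm38 from 117168535 to 117181367, it was 19.2, 61.9, 23.1, 61.6 and 45.1 CPM in the GF libraries. CONV-R libraries ran from 3.53 through a median of 5.48 to 17.7 CPM. Every GF value lay above every CONV-R value, although CONV-R replicates 5 and 6, at 13.5 and 17.7 CPM, came close to GF replicate 1. The Log2FC was 2.34 (standard error 0.41, edgeR adjusted p = 0.00224), from means of 8.27 ± 5.88 CPM in CONV-R (SD, n = 6) and 42.2 ± 20.4 CPM in GF ECs (SD, n = 5). Leaving out any single mouse gave edgeR adjusted p values of 0.000738 to 0.00789. Stellate cells also make *Cxcl12*. Of 10 stellate cell and fibroblast markers, 8 had the higher mean in GF libraries and 2 the lower, and 0 of the 2 tested were called. *Lrat*, the best counted of them, had 4.91 ± 2.32 CPM in CONV-R and 1.89 ± 1.46 CPM in GF libraries (SD, edgeR adjusted p = 0.0865). Without CONV-R replicate 3 and GF replicate 6 together, *Lrat* was called lower (Log2FC -1.90, edgeR adjusted p = 0.0450). *Reln* had 0.709 ± 0.345 and 1.69 ± 1.27 CPM and *Dcn* 0.967 ± 0.566 and 1.39 ± 1.20 CPM. The summed markers were 3.18, 12.6, 2.47, 10.95 and 9.75 CPM in GF replicates 1, 2, 4, 5 and 6 and 4.81 to 11.5 CPM in CONV-R libraries. GF replicates 1 and 4, the lowest GF libraries in *Cxcl12*, were also the lowest in this sum. Among CONV-R libraries, replicate 4 was lowest in both, and replicate 5, with the highest sum, was second in *Cxcl12*. Replicate 6, the highest CONV-R library in *Cxcl12*, had a sum of 6.66 CPM, and replicate 2 had 10.6 CPM with *Cxcl12* at 5.32 CPM. The part of stellate cell RNA in the result was not tested.

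The receptors of *Cxcl12* showed no call. *Cxcr4* was too weakly counted for the test, with 0.843, 0.288, 0.381, 0.792 and 2.17 CPM in GF libraries and 0.242 to 1.55 CPM in CONV-R libraries. *Ackr3*, which binds and clears the ligand, had 4.15, 10.7, 8.47, 11.3 and 6.36 CPM in GF and 4.60 to 7.23 CPM in CONV-R libraries. Its Log2FC of 0.40 (standard error 0.26) had an edgeR adjusted p of 0.382.

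*Ccl6* and *Ccl9* encode CC ligands of CCR1 that are known from macrophages and other myeloid cells of rodents. They are neighbours on chromosome 11 of GRCm38, *Ccl9* from 83572919 to 83578636 and *Ccl6* from 83587882 to 83593087. *Ccl6* had 6.03, 11.3, 3.04, 12.7 and 17.9 CPM in the GF libraries, against 1.13 to 3.72 CPM in CONV-R libraries with a median of 1.83. Only GF replicate 4 fell within the CONV-R range, under CONV-R replicate 6. The Log2FC was 2.34 (standard error 0.41, edgeR adjusted p = 0.00228). Leaving out any single mouse gave 2.04 to 2.61, each time past the threshold.

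*Ccl9* had 10 counts in all CONV-R and 71 in all GF libraries, too few to pass the filter. Its GF values were 0.584, 0.962, 0.856, 2.64 and 3.11 CPM, and its CONV-R values ran from 0 to 0.242 CPM, without overlap. A two-sided exact permutation of the mice gave p = 0.00216, the smallest that 5 mice against 6 allow and not adjusted for the 32 members tested this way. DESeq2 gave a Benjamini-Hochberg adjusted p of 0.000261 over all its genes, and edgeR without the filter 0.00466. The macrophage marker sum was 340, 453, 273, 293 and 1177 CPM in GF replicates 1, 2, 4, 5 and 6. It was lowest in replicate 4 and highest in replicate 6, as *Ccl6* was, but replicate 5 had the second-lowest sum and the second-highest *Ccl6*. CONV-R replicate 1, with a sum of 291 CPM, had *Ccl6* at 2.25 CPM. Without CONV-R replicate 3 and GF replicate 6 together, which was decided on once values were known, the Log2FC of *Ccl6* was 2.03 (adjusted p = 0.0132, edgeR). The 8 called macrophage markers then had Log2FC values of 0.66 to 1.43, and 2 of them, *Csf1r* and *C1qb*, stayed past the threshold (adjusted p = 0.0262 and 0.0373, edgeR). The part of macrophage RNA in the result was not tested.

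Of the 3 other members of that chromosome 11 stretch, edgeR tested *Ccl5* and did not call it, while *Ccl3* and *Ccl4* were left out by the filter. *Ccl5*, a chemokine made by lymphocytes, had a Log2FC of 0.44 (adjusted p = 0.713, edgeR). *Ccl3* had 26 counts in all CONV-R and 5 in all GF libraries, with the higher mean in CONV-R (two-sided exact permutation test, p = 0.0325, unadjusted, and DESeq2 adjusted p = 0.304). *Ccl4* had 8 and 6 counts. *Ccr1*, the receptor of *Ccl6* and *Ccl9*, had 12 and 2 counts.

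*Cxcr5* and *Ccr7* encode receptors that steer B cells and naive T cells into lymphoid follicles and zones, and both had lower values in GF ECs. *Cxcr5* had 1.36, 0.769, 1.14, 1.19 and 0.677 CPM in GF libraries and 1.36 to 5.39 CPM in CONV-R libraries, with a median of 2.61. The groups touched at 1.36 CPM without crossing, and CONV-R replicate 3 was again the highest. The Log2FC was -1.40 (standard error 0.42) with an edgeR adjusted p of 0.0509, which missed the threshold, and of 0.0192 from DESeq2. Of the 11 fits that left out 1 mouse, the 1 without CONV-R replicate 2 passed (edgeR adjusted p = 0.0401) and the other 10 did not, with values up to 0.110. Without CONV-R replicate 3 the Log2FC was -1.12 (edgeR adjusted p = 0.0941), and without GF replicate 6 as well it was -1.01 (adjusted p = 0.169).

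*Ccr7* had 65 counts in all CONV-R and 5 in all GF libraries. CONV-R values ran from 0.481 to 1.32 CPM, and GF values were 0.0649, 0.192, 0.190, 0 and 0 CPM. Every GF library lay below every CONV-R library (two-sided exact permutation test, p = 0.00433, unadjusted). Too sparse for the filter, it had an adjusted p of 0.00806 from DESeq2 and 0.0394 from edgeR without the filter, a setting that called 4.48% of 25329 genes and 6 members, of which 2 were lower.

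The B cell marker *Ms4a1* had 4.35 ± 2.49 CPM in CONV-R and 1.72 ± 1.63 CPM in GF libraries (SD, adjusted p = 0.200, edgeR), and the part of B cell RNA in both receptors was not tested. *Cxcl13*, the ligand of CXCR5, went the other way in its mean. GF replicates 2 and 6 had 7.69 and 5.82 CPM, and the other 3 GF libraries, at 0.264 to 1.05 CPM, lay among the CONV-R values of 0.161 to 2.33 CPM. Its Log2FC of 1.83 (standard error 0.74) had an adjusted p of 0.148 from edgeR. Of the CCR7 ligands, *Ccl21a* had 1 count in all libraries and *Ccl19* none, and since near-identical copies of both are annotated, these counts set no limit on their levels.

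**Figure D5:**
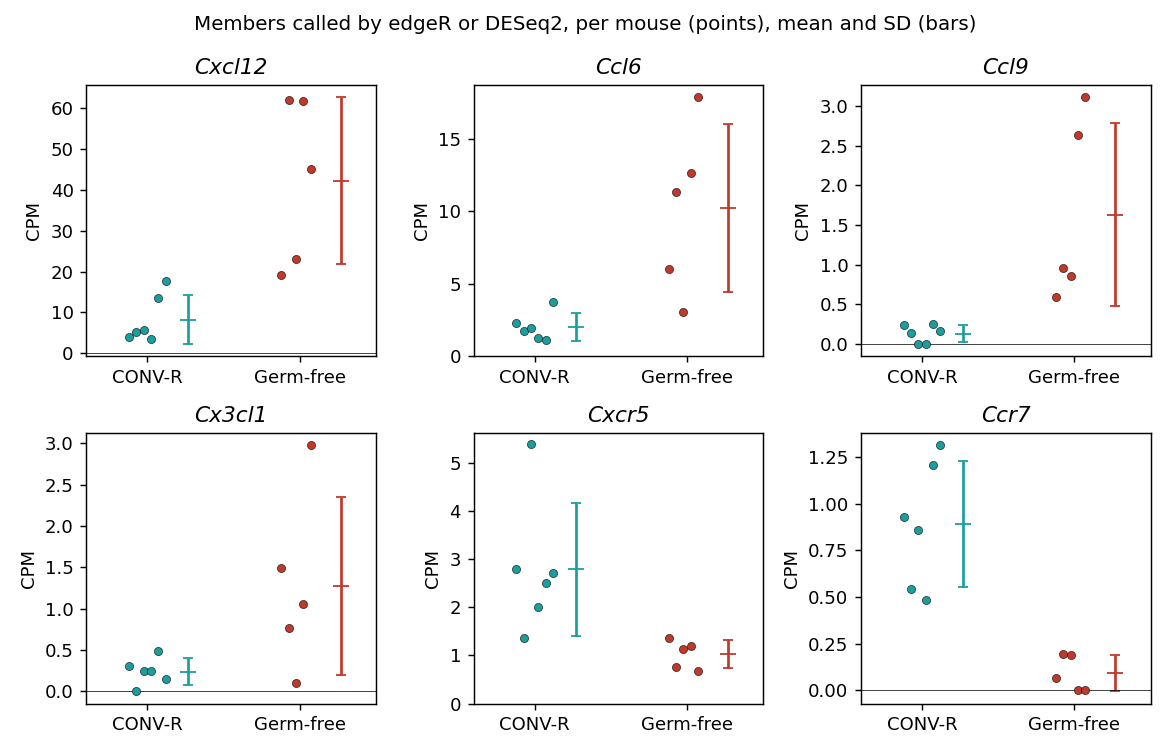
CPM (y axis) in each mouse (points), with group mean and SD, of 6 members called by edgeR or DESeq2. *Cxcl12* and *Ccl9* lie higher in every GF than in any CONV-R library, *Ccr7* lower in every one, *Cxcr5* lower in every one as well, though both groups reach 1.36 CPM, and *Ccl6* and *Cx3cl1* overlap in GF replicate 4.

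*Cx3cl1* encodes fractalkine, a membrane-bound ligand by which ECs hold CX3CR1-bearing monocytes, and which is also shed as a soluble attractant. It had 1.49, 0.769, 0.0951, 1.06 and 2.98 CPM in GF libraries and 0 to 0.484 CPM in CONV-R libraries, so that only GF replicate 4 lay within the CONV-R range. Its counts were 17 in all CONV-R and 62 in all GF libraries (two-sided exact permutation test, p = 0.0130, unadjusted, DESeq2 adjusted p = 0.0359, edgeR without the filter 0.0934). *Cx3cr1* had 19 and 13 counts.

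*Ccl20*, the ligand of CCR6, had 33 counts in CONV-R libraries and 0 in GF libraries, where 0 counts together allow up to 0.0585 CPM, a limit that covers counting error only. Of these 33 counts, 23 came from CONV-R replicate 3. DESeq2 called it (adjusted p = 0.0375), as did edgeR without the filter (0.0244), while a two-sided exact permutation of the mice gave p = 0.197.

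The 4 atypical receptors were all well counted and none was called. *Ackr2*, which scavenges inflammatory CC chemokines, had 104, 143, 128, 83.7 and 105 CPM in GF libraries and 64.8 to 112 CPM in CONV-R libraries. Its Log2FC was 0.31 (standard error 0.15, edgeR adjusted p = 0.232). *Ackr1*, which carries CC and CXC chemokines across venular ECs, had 15.8 to 43.1 CPM in GF and 21.8 to 49.3 CPM in CONV-R libraries and a Log2FC of -0.17 (standard error 0.26). It shares 25.7% of its exon bases with *Cadm3* on the same strand, so its level is uncertain. *Ackr4*, which clears *Ccl19*, *Ccl21* and *Ccl25* products, had 21.5 to 47.0 and 24.4 to 35.7 CPM and a Log2FC of -0.04 (standard error 0.19), and it shares 8.90% of its exon bases with *Acad11* on the other strand.

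Among matched ligand and receptor genes, *Cxcl16* encodes a ligand that ECs and macrophages present to CXCR6-bearing NKT and T cells of the sinusoid. It had 139.5, 114, 182, 148 and 149 CPM in GF libraries and 126 to 179 CPM in CONV-R libraries, with a Log2FC of 0.00 and a standard error of 0.13. *Zmynd15* on the other strand covers 18.3% of its exon bases. *Cxcr6*, at 1.08 to 5.38 CPM in GF and 2.01 to 6.74 CPM in CONV-R libraries, had a Log2FC of -0.27 (standard error 0.39). *Ccl25*, known for homing of lymphocytes to gut, and its receptor *Ccr9* had Log2FC values of -0.46 and -0.75 (standard errors 0.29 and 0.38, adjusted p = 0.362 and 0.245, edgeR). *Ccr9* was the highest in GF replicate 2, at 6.06 CPM, and between 1.24 and 2.47 CPM in the other GF libraries, and without that library its adjusted p from edgeR was 0.0462.

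*Ccl2*, which draws monocytes through CCR2, had 0.259, 1.83, 0.761, 1.98 and 0.542 CPM in GF and 0.321 to 7.60 CPM in CONV-R libraries. The value of 7.60 CPM was CONV-R replicate 3, and its Log2FC went from -1.03 (standard error 0.71) to -0.14 without that library. *Ccr2* followed the same outline, with 6.00 CPM in CONV-R replicate 3 and a Log2FC of -0.87 that became -0.36. *Cxcl1*, a neutrophil attractant, had a Log2FC of -1.10 (standard error 0.63, adjusted p = 0.314, edgeR), and *Ccl28* one of -0.51 (standard error 0.53). CONV-R replicate 3 was the highest CONV-R library for 12 of the 21 tested members. How often it was the highest over all tested genes was not counted. It also had the fewest counts of the CONV-R libraries, at 7922855 against a CONV-R median of 12425848.

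Of the 32 members with counts that the filter left out, 10 had fewer than 10 counts in all libraries together, and 4 had an unadjusted p under 0.05 in the two-sided exact permutation test, namely *Ccl9*, *Ccr7*, *Cx3cl1* and *Ccl3*. Among all 12424 genes with counts that the filter left out, 2.78% had such a p, and these include genes with too few counts to reach it. A single count was worth 0.0649 CPM in the deepest and 0.135 CPM in the shallowest library, so changes of such genes are hard to detect at this depth. No counts were found for 14 entries, 7 of which are copies of *Ccl19*, *Ccl21* and *Ccl27* genes on unplaced scaffolds. Reads shared between such near-identical copies may be lost or split, so the levels of these genes are uncertain.

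Beyond the family, 4 lists of related genes were read in the same fit. Of 51 tested genes that carry chemokine receptor signals inside the cell, 6 rose and 2 fell, and the median Log2FC was 0.12. For this and the other 3 lists the background was 4.80% higher and 2.67% lower over all tested genes. The regulators of G protein signalling *Rgs2* and *Rgs1* rose with Log2FC values of 0.92 and 2.02 (adjusted p = 0.00462 and 0.0309, edgeR), and *Elmo1* and *Rhoa*, which drive the cytoskeleton in moving cells, with 1.47 and 0.69 (adjusted p = 0.00620 and 0.00422). *Stat3* and *Foxo3* rose with 0.50 and 0.73 (adjusted p = 0.0149 and 0.0199, edgeR), and *Rgs1* had the largest p of the 6. *Tiam1*, an activator of the GTPase RAC1, and the kinase *Jak2* fell by 1.05 and 0.35 on the log2 scale (adjusted p = 0.0236 and 0.0402, edgeR). Of these signalling genes, *Rgs1* and *Jak2* were not called without CONV-R replicate 3 and GF replicate 6 together (adjusted p = 0.0733 and 0.0779, edgeR).

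Of 14 tested chemokine-like genes and receptors outside the symbol rule, 3 rose and 0 fell, with a median Log2FC of 0.25. *Ccrl2*, an endothelial receptor that presents chemerin, rose from 28.0 ± 4.41 to 49.4 ± 14.9 CPM (SD, n = 6 and 5, Log2FC 0.82, adjusted p = 0.0115, edgeR). *Cmklr1*, the signalling receptor of chemerin, rose with a Log2FC of 1.41 (adjusted p = 0.0227), and *Cd74*, the invariant chain and a receptor of MIF, with 2.14 (adjusted p = 0.00249), or 1.52 without CONV-R replicate 3 and GF replicate 6. The platelet chemokines *Pf4* and *Ppbp* had Log2FC values of 0.63 and 0.00 (adjusted p = 0.492 and 0.996, edgeR). *Gpr182*, an abundant scavenging chemokine receptor of sinusoidal ECs, had 1777 ± 496 CPM in CONV-R and 2230 ± 646 CPM in GF ECs (adjusted p = 0.326, edgeR).

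Of 24 tested genes that cut or anchor chemokines, 2 rose and 0 fell, with a median Log2FC of 0.23: the protease *Ctss* (Log2FC 1.56, adjusted p = 0.0156, edgeR, and Log2FC 0.81 without CONV-R replicate 3 and GF replicate 6) and the heparan sulfate enzyme *Ndst2* (0.55, adjusted p = 0.0237). The sheddases of fractalkine and CXCL16, *Adam10* and *Adam17*, were not among them. Of 23 tested genes that induce or restrain chemokine transcription, 2 rose and 0 fell, with a median of 0.17. These were *Ifngr1*, a chain of the interferon gamma receptor (Log2FC 0.60, adjusted p = 0.0154, and 0.0587 without CONV-R replicate 3 and GF replicate 6), and *Tsc22d3*, a glucocorticoid-induced inhibitor of inflammatory genes (Log2FC 1.59, adjusted p = 2.225e-06, edgeR). *Cd74*, *Ctss* and *Cmklr1* are also expressed by macrophages, whose markers were higher in the same libraries. Of 14 genes of the 4 lists that had counts but were left out by the filter, 2 had an unadjusted exact permutation p under 0.05. Among all 12424 such genes the share was 2.78%, and these include genes with too few counts to reach it. The 2 genes, *Tnf* and *Rgs14*, had lower values in GF libraries. *Tnf*, an inflammatory cytokine that induces chemokines, had 92 counts in all CONV-R and 7 in all GF libraries, at 0.642 to 2.57 CPM and 0 to 0.385 CPM (two-sided exact permutation of the mice, p = 0.00866, unadjusted). *Rgs14*, a regulator of G protein signalling, had 26 counts and 1 count (exact p = 0.00433, unadjusted). Both were singled out after their values were seen.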

How the data were processed

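The authors trimmed 50 bp single-end reads with Trim Galore 0.4.4, mapped them to GRCm38 with STAR 2.5.2b and counted them per gene with featureCounts 1.5.2, and left out 1 further GF library for few mapped reads. The deposited counts are not normalized, and 11 columns were used. The annotation release and strand setting are not given in the sources used here. The authors' normalized values were not used here.

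Genes were filtered with filterByExpr of edgeR 4.0.16 under R 4.3.3, scaled by TMM, and tested for GF against CONV-R with its quasi-likelihood method. The p-values were adjusted after Benjamini and Hochberg over 12905 genes, with a threshold of 0.05. DESeq2 1.42.0 was an alternative, as were its size factors, no filter, at least 10 counts in every library, a replicate block, and each library left out in turn. Members under the filter were compared by two-sided exact permutation tests over 462 splits of the mice. Exon lengths and positions came from GENCODE M21 (GRCm38), which matched all 67 members, and upstream sequences from RefSeq. The tests were tried on simulated counts.

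Totals of 7242717 to 16164588 counts per library and 5 or 6 mice per group limit the precision. The members and lists were chosen with earlier results of these data known. The naming rule took members called by either tool, the 12 highest per length, those without overlap and their partners, which gave 24 genes. A further 7 were named after their values were seen. *Ccl4* and *Ccl19* come on top of these and are given by their counts only. Values of 1 tested member and of 1 marker gene are not reported here.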

Additional observations from a re-analysis of the deposited data

Results flagged for a closer look

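In 60 groups of 5 or 6 libraries examined, 15 values stood apart from the rest of their group by a gap large against the group's range. The limit used would flag about 1 in 20 groups if values were normally distributed. CPM near 0 are skewed, and a group with counts in 1 library alone is always flagged. The 15 values are therefore not measured against chance. Of the 15 values, 10 belonged to CONV-R replicate 3, each the highest of its group: *Cxcl9* at 267 CPM (next 120), *Cxcl10* at 213 (next 66.0), *Cxcl11* at 3.80 (next 1.30), *Ccl2* at 7.60 (next 1.84), *Ccl20* at 2.82 (next 0.310), *Cxcl1* at 3.43 (next 1.44), *Cxcl13* at 2.33 (next 0.930), *Ccr2* at 6.00 (next 2.39), *Cxcr5* at 5.39 (next 2.79) and *Ccr6* at 0.368 CPM (next 0.0775). The genes are not independent of each other within a library.

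In GF replicate 2, *Ccr9* stood at 6.06 CPM (next 2.47) and *Ccr6* at 0.481 CPM (next 0.130). *Cxcr3* stood at 1.10 CPM in GF replicate 1 (next 0.271) and at 0.726 CPM in CONV-R replicate 5 (next 0.245). *Ccl21a* had its only count in CONV-R replicate 1, at 0.0775 CPM.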

How the results depend on the processing

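*Cxcl12* and *Ccl6* were higher in GF ECs and called under all 18 alternatives, and *Cxcl9* was higher under all 18 and called under 10 (Log2FC 0.79 to 1.23). The count of called members, 3, became 8 with DESeq2 (5 higher, 3 lower) and 6 without the filter (2 lower), and lay between 2 and 5 with 1 library left out, of which 0 to 2 were lower. With the other scaling, the stricter filter and the replicate block it was 3. The cause was not tested. Same-numbered libraries come from different mice, and their deviations correlated between -0.01 and 0.20, over 0.1 for 1 of 5 numbers. The GF libraries numbered 1 and 6 correlated best with the CONV-R library of their own number, and those numbered 2, 4 and 5 did not. What the number stands for is not given, and so few pairs cannot show whether it marks a shared batch. The replicate block called 1101 of 12807 genes, against 931 in the same libraries without it.

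With 1 library left out, signalling genes called ranged from 5 to 10, processing genes from 1 to 5 and induction genes from 1 to 4, against 8, 2 and 2. Induction genes called were 5 with DESeq2 or the replicate block, and 4 in its libraries unblocked. Some uncalled Log2FC values changed sign. *Ackr1* reached 0.020 in the block's libraries unblocked (-0.41 to 0.020 with 1 library left out), *Ackr4* ran from -0.28 to 0.048 and *Cxcl16* from -0.091 to 0.079. *Cxcl16* was -0.015 without the filter and -0.0065 with a stricter one. Without CONV-R replicate 3 and GF replicate 6, *Ackr4* was 0.078, *Ccl2* 0.015 (from -1.03) and *Cxcr6* 0.032. Weakly counted members are limited by depth.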
